A study of Mus musculus with 15 samples.

Results

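The ErbB receptors and their ligands of the epidermal growth factor (EGF) family were followed through 15 mouse liver tumors. The group comprised 10 genes, chosen by symbol, namely the receptors Egfr, Erbb2, Erbb3 and Erbb4 and the ligands Areg, Ereg, Btc, Hbegf, Tgfa and Egf. All 10 had a probe on the array, with 12 probes in all, among 22594 genes that carried a known symbol. Egfr had 3 probes and every other member had 1.

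ErbB receptors are tyrosine kinases of the cell surface that work in pairs. Egfr and Erbb4 bind EGF family ligands, Erbb2 has no known ligand and serves as a partner, and Erbb3 binds neuregulins but has little kinase activity of its own. Areg, Ereg, Btc, Hbegf and Tgfa are made as membrane proteins and released by metalloproteases such as Adam17. Activated receptors signal through the Ras and ERK cascade and through PI3 kinase and Akt, and are restrained by inhibitors such as Errfi1. In the liver, hepatocytes are rich in Egfr, and the pathway is known for its part in regeneration.

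RNA of whole tumor tissue was hybridised to 1-colour Agilent arrays, with 1 array per tumor. The first group held 5 hepatocellular carcinomas (HCC) of p53f/f mice, in which both Trp53 alleles are floxed but intact. The second held 5 HCC of p53LKO mice, which lack Trp53 in the liver, and the third held 5 tumors of p53LKO mice labelled intrahepatic cholangiocarcinoma (ICC). All mice were of C57/BL6J background, those of the transcriptome were described as male, and all received carbon tetrachloride (CCl4, 0.5 µl per g body weight) for 16 weeks. The Cre promoter of the p53LKO mice is not given in the sources used here. The paper names ages at sacrifice for its mice in general, but not the age at which the hybridised p53f/f tumors were taken. It reports that tumor formation was delayed in p53f/f mice. Age may therefore differ between the HCC groups and cannot be told apart from genotype. Only 4 mice stand behind the 5 p53f/f HCC, as 2 of these tumors were taken from mouse 3717, and 4 of the p53LKO mice gave both an HCC and an ICC.

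Below, a level is the log2 of the processed signal of a probe minus the 75th percentile of its array, so that 0 marks that percentile, and a change is a difference of mean levels. Levels of different probes cannot be set against each other. Where the values of a group are listed, the p53f/f HCC are in the order of mice 3681, 3715, 3716 and 3717 with its 2 tumors, the p53LKO HCC in that of mice 3976, 5283, 3731, 3733 and 3975, and the ICC in that of mice 3731, 3733, 3976, 3977 and 5283. A gene was tested where its probe was well above background, by the scanner software's call, on at least 3 arrays of 1 of the 2 groups compared. It counted as changed where it differed by over 2-fold and limma's moderated test gave an adjusted p below 0.05, with Benjamini-Hochberg adjustment over all probes tested.

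The arrays lay on 2 slides of 2 rows each, and the rows differed in how dim a probe could be and still be called above background. The lowest level called well above background was between -5.13 and -3.67 on the 8 arrays of the upper rows and between -3.19 and -2.13 on the 7 arrays of the lower rows. All p53f/f HCC lay in the upper and all ICC in the lower rows, while 3 p53LKO HCC lay in an upper row and 2, of mice 3976 and 5283, in a lower row. The single Trp53 probe, which the array annotation places on chromosome 17 rather than at the gene, had a level of -1.01 ± 0.28 (SD, n = 5) in p53f/f HCC against -3.09 ± 0.46 in p53LKO HCC, with no overlap. The 8 hepatocyte markers were above background on all 15 arrays. Their mean level was 6.78 to 7.76 in p53f/f HCC, 6.54 to 7.02 in p53LKO HCC and 3.74 to 6.06 in ICC. Of 7 tested markers of bile duct cells, Krt7, Krt19, Epcam and Spp1 were higher and Cldn7 was lower in ICC than in p53LKO HCC.

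To show where the members that changed are read from, 6 of the 7 members listed in the RefSeq promoter table (build GRCm38.p6) are printed below with the 250 bases before their start site. Egfr and Egf were lower in p53LKO than in p53f/f HCC. In ICC, Erbb2 rose, Btc and Tgfa fell, and Areg read below background. For Egf, which has 2 listed starts, the first along the gene is shown. Capitals mark matches, on either strand, to the TATA box TATAAA, the GC box GGGCGG, the cAMP response element TGACGTCA, the AP-1 site TGANTCA, the TEAD site GGAATG or the half-site consensus of p53.
Egfr, chr11:16751953-16752202, + strand: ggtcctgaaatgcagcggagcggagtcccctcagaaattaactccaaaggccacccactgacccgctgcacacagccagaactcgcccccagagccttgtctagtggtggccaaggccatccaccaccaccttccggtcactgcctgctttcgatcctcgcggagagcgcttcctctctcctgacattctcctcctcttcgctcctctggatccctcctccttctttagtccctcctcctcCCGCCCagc
Egf, chr3:129755323-129755572, - strand: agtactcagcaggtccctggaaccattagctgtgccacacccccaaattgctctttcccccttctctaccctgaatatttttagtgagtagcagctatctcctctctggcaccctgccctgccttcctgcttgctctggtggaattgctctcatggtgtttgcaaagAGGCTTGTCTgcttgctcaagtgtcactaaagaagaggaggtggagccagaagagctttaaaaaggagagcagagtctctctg
Erbb2, chr11:98412234-98412483, + strand: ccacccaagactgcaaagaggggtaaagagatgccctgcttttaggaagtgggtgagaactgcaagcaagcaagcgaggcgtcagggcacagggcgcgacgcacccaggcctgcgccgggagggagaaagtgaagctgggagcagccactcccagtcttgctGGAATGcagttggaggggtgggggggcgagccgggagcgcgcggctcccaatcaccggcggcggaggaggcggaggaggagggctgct
Areg, chr5:91139349-91139598, + strand: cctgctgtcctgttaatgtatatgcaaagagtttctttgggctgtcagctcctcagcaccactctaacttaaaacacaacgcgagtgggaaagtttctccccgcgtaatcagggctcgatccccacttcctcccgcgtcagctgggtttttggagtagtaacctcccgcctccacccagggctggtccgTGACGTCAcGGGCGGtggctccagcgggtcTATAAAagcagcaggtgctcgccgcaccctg
Btc, chr5:91402995-91403244, - strand: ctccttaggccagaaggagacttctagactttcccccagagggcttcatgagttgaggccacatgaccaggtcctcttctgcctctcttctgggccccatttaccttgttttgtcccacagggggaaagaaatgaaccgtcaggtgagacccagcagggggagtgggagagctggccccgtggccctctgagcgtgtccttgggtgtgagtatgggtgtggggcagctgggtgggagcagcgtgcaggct
Tgfa, chr6:86194972-86195221, + strand: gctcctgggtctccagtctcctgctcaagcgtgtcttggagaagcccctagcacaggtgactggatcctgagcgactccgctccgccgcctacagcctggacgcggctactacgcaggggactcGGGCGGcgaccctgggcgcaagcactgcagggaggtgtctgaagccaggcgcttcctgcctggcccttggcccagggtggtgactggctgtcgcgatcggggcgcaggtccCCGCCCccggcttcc

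The promoter of Areg, the ligand amphiregulin, held a TATA box 31 to 26 bases before the start, a GC box 52 to 47 bases before it and a cAMP response element at 61 to 54 bases. Tgfa held 2 GC boxes and no TATA box, and Egfr held 1 GC box, 9 to 4 bases before its start. Egf held 1 half-site match of p53 at 83 to 74 bases, Erbb2 held 1 TEAD match, and Btc matched none of the motifs. Among 32851 start windows of the same 250 bases, 12.4% held the TATA box, 32.7% the GC box, 1.55% the cAMP response element, 6.75% the AP-1 site, 12.6% the TEAD site and 7.13% the p53 half-site. None of these motifs was found in all 3 windows of Areg, Btc and Tgfa.

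**Figure D1:**
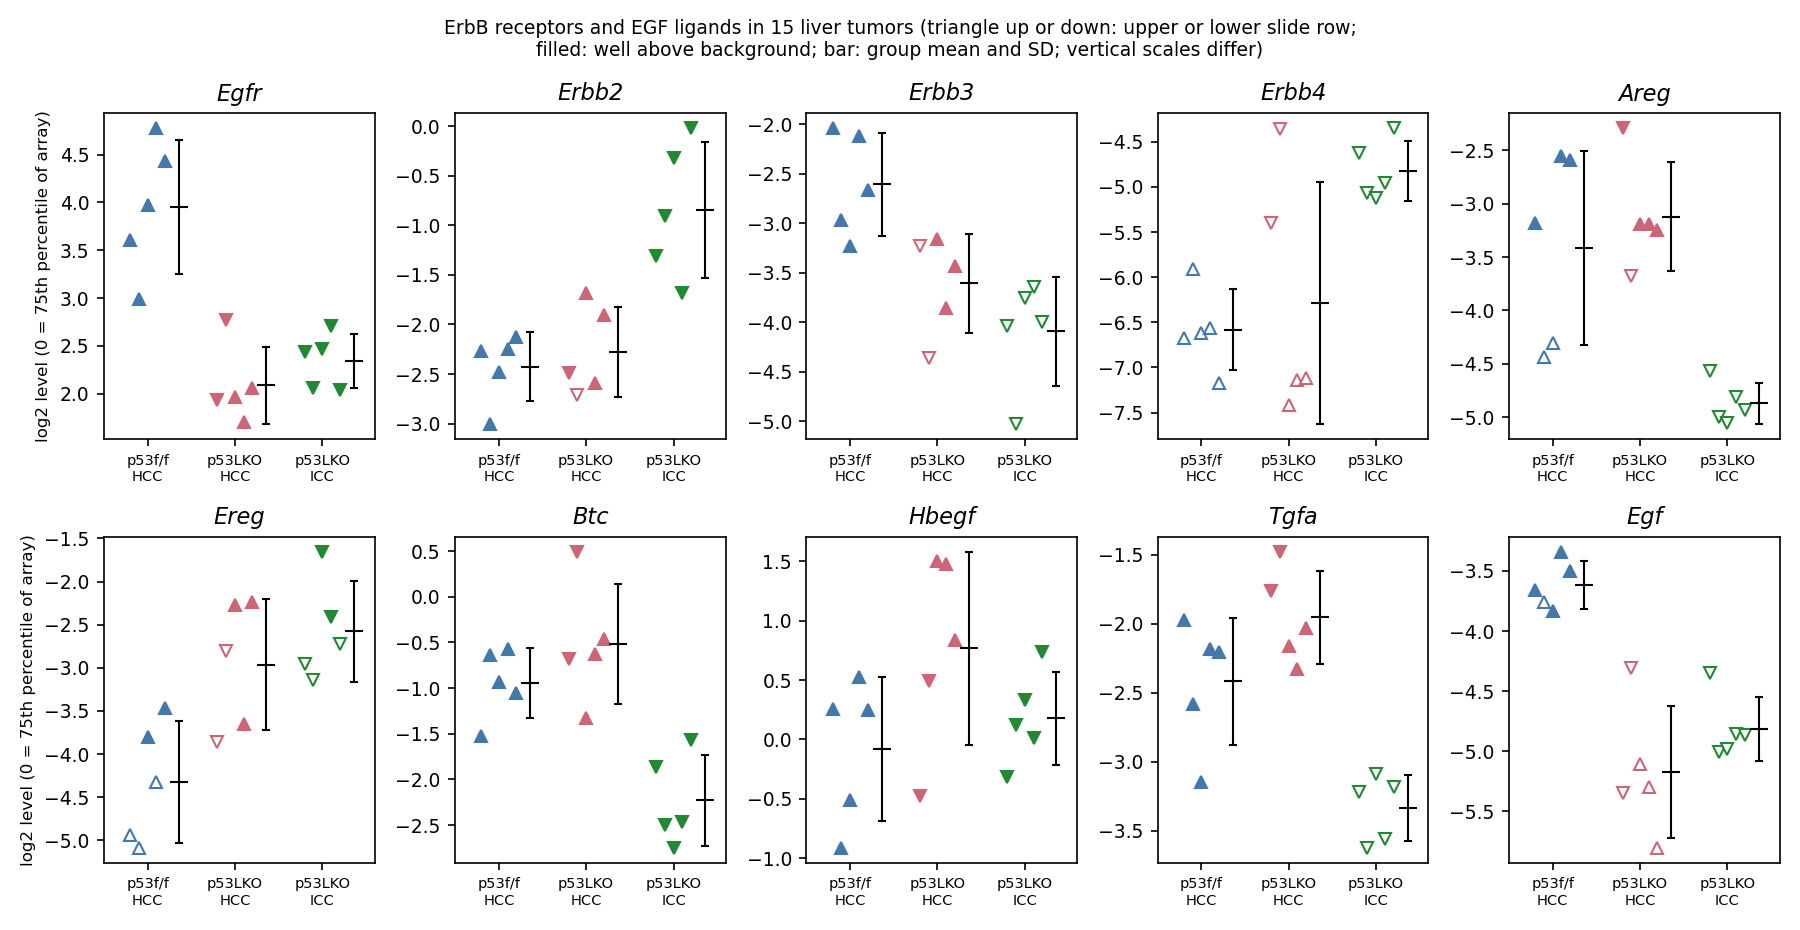
Level of each member in each tumor, as log2 relative to the 75th percentile of its array, in 3 groups of 5 tumors. Triangles pointing up or down stand for the upper or lower slide row, open symbols for probes not well above background, and bars for the group mean and SD. Egfr was lower in every p53LKO HCC than in any p53f/f HCC, Erbb2 was higher and Btc lower in every ICC than in any p53LKO HCC, and the symbols of Egf in p53LKO HCC and of Areg and Tgfa in ICC are all open.

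The first comparison asked how HCC that arose without p53 differed from HCC of p53f/f mice. Egfr, the main ErbB receptor of hepatocytes, was 3.65-fold lower in p53LKO HCC, and Egf, its name-giving ligand, was below background there. Erbb3 passed as lower, a call that 17 of 30 alternatives ended, and Ereg, the ligand epiregulin, passed as higher, a call that 16 of 29 ended. Of the 9 members tested, 1 was higher, against 5.41% of the 16847 genes tested, and 3 were lower, against 8.96% of them. These counts are a description, since Egf and Ereg met the filter on dim probes only through the group where they read higher. The median change of the tested members was 0.29, and that of all genes tested was 0.095.

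The levels of Egfr were 3.60, 2.99, 3.97, 4.78 and 4.43 in p53f/f HCC against 1.94, 2.77, 1.97, 1.70 and 2.05 in p53LKO HCC and 2.44, 2.06, 2.47, 2.71 and 2.04 in ICC. Each p53f/f tumor lay above each p53LKO tumor, whether HCC or ICC. The change between the HCC was -1.87 (SE 0.33, 95% interval -2.60 to -1.14, adjusted p = 0.0019), and the exact permutation test gave p = 0.00794, the smallest that 5 against 5 tumors allow. Both tests count the tumors of mouse 3717 as separate, and with these averaged the change was -1.71 (adjusted p = 0.00535). In whole tumor tissue, fewer cells of a type and less RNA per cell cannot be told apart. Since the hepatocyte markers of p53LKO HCC were also somewhat lower as a list, with Apob the 1 of 8 past the thresholds and a median change of -0.57, the part of hepatocyte content in this result was not tested.

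The other Egfr probes lie 26.6 kb and 30.3 kb upstream of the representing probe, which is at chr11:16813815-16813874 (mm9), and the array annotation assigns them to another transcript of the gene. The probe 30.3 kb upstream changed by -2.03 (SE 0.19, adjusted p = 9e-05) and the probe 26.6 kb upstream by -2.05 (SE 0.19, adjusted p = 8.9e-05). On both, the 5 p53LKO HCC again lay below the 5 p53f/f HCC. Within the upper rows, which held 5 p53f/f and 3 p53LKO HCC, the representing probe changed by -2.05 (adjusted p = 0.00434). Within the first slide it changed by -1.48 and missed the threshold at an adjusted p of 0.12. The second slide held 1 p53f/f HCC, which the fit assumes to vary like the others, and there the change was -2.53 (adjusted p = 0.0478).

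**Figure D2:**
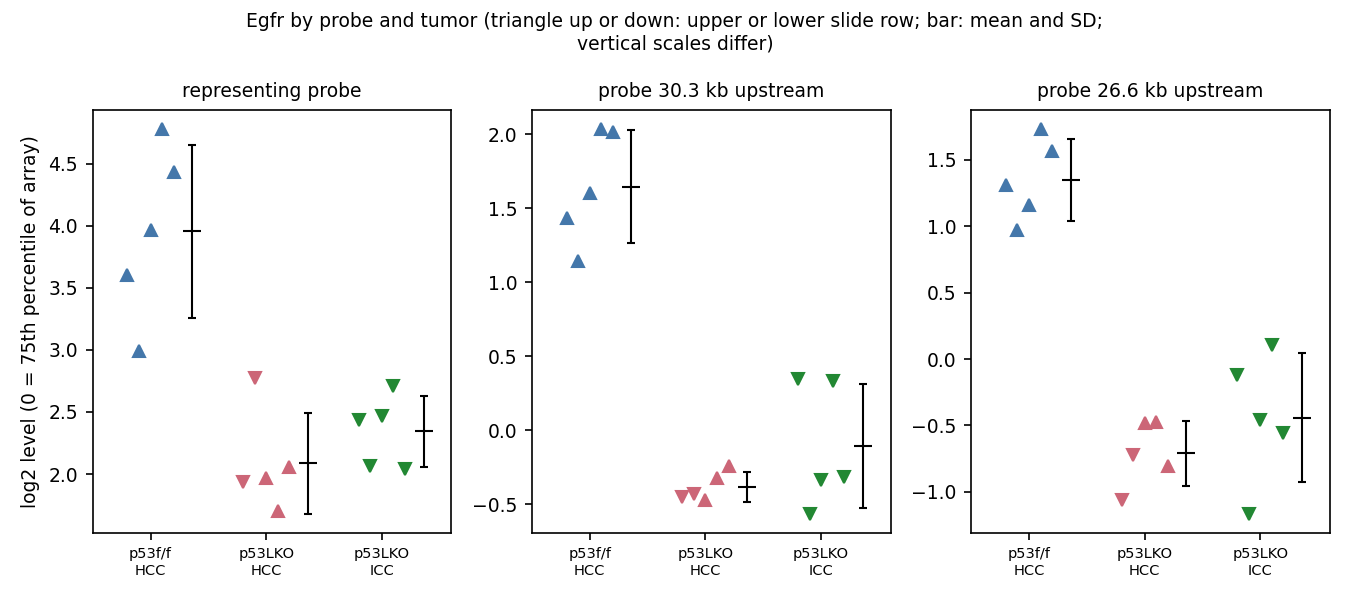
Level of the 3 Egfr probes in each tumor, as log2 relative to the 75th percentile of its array, with the group mean and SD as bars and the slide row as the direction of the triangle. On each probe the 5 p53f/f HCC lie above the 5 p53LKO HCC, and the ICC overlap with the p53LKO HCC.

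Erbb2 levels were -2.27, -3.01, -2.48, -2.25 and -2.13 in p53f/f HCC against -2.49, -2.71, -1.69, -2.59 and -1.90 in p53LKO HCC. The ranges overlapped, and the change of 0.15 (95% interval -0.40 to 0.70, adjusted p = 0.67) leaves room for a difference of either sign. Erbb3 levels were -2.04, -2.97, -3.23, -2.12 and -2.67 in p53f/f HCC against -3.23, -4.36, -3.16, -3.86 and -3.44 in p53LKO HCC. Here 3 of the 5 tumors without p53 were lower than any with it, and the probe was above background on 5 p53f/f and 3 p53LKO arrays. Erbb3 changed by -1.0 (SE 0.30, adjusted p = 0.0268), a 2.0-fold difference. It missed the thresholds with quantile normalization (-0.83, adjusted p = 0.292), without the filter on dim probes (adjusted p = 0.0598), and with the methods' t-test and the Mann-Whitney test. It also missed them within the upper rows (-0.88, adjusted p = 0.0715), with the tumors of mouse 3717 averaged (-0.95, adjusted p = 0.0549), and without any 1 of 5 tumors. These were the p53f/f tumors of mouse 3681 (-0.86, adjusted p = 0.0634) and of mouse 3717 (-0.88, adjusted p = 0.0676, and -1.02, adjusted p = 0.0509) and the p53LKO HCC of mice 5283 (-0.81, adjusted p = 0.051) and 3733 (-0.94, adjusted p = 0.0594).

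Erbb4, the fourth receptor, was above background on none of the 15 arrays and was not tested. Its readings followed the slide row, from -7.42 to -5.91 in the upper rows and from -5.40 to -4.34 in the lower rows.

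Among the ligands, Egf had levels of -3.65, -3.76, -3.83, -3.34 and -3.50 in p53f/f HCC against -5.35, -4.31, -5.11, -5.30 and -5.81 in p53LKO HCC. No value of one group lay within the range of the other, and Egf was above background in 4 of 5 tumors with p53 and in 0 of 5 without. On the lower-row p53LKO arrays of mice 3976 and 5283, the lowest level called above background was -3.19 and -2.13. Both lay above every p53f/f level, so an unchanged Egf would not have been called there. The change of Egf was -1.56 (SE 0.25, adjusted p = 0.00113). Egf met the filter on dim probes only through the p53f/f HCC, and its call stood without that filter. Because the p53LKO readings are only a bound, the fall was at least 1.33-fold, counted against the lowest level called above background on each array. In ICC, where Egf was below background on all arrays, it read -5.01 to -4.35. Within the upper rows, whose background is lower, the change was -1.79 (adjusted p = 0.000705). Within the slides it was -1.18 on the first (adjusted p = 0.0829) and -1.90 on the second (adjusted p = 0.0779).

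Ereg levels were -4.94, -5.09, -3.80, -4.33 and -3.47 in p53f/f HCC against -3.86, -2.80, -2.27, -3.65 and -2.24 in p53LKO HCC. The p53LKO HCC were the higher group with overlap, since 3 of them lay above all p53f/f HCC. Ereg was above background on 2 p53f/f and 3 p53LKO arrays, and 2 of the p53LKO readings came from the lower row, where the background is higher. It thus met the filter on dim probes only through the p53LKO HCC. Its change was 1.36 (SE 0.41, adjusted p = 0.0275), with no call when that filter was left out (adjusted p = 0.0582), and 1.61 within the upper rows (adjusted p = 0.0321). With the slide as a block the change was 1.04 (adjusted p = 0.0817), and it was 1.21 within the first slide (adjusted p = 0.154) and 0.75 within the second (adjusted p = 0.52). Leaving out the p53f/f tumor of mouse 3681, 3715 or the first of mouse 3717 gave 1.21, 1.17 and 1.36 (adjusted p = 0.0652, 0.0554 and 0.0545). Leaving out the p53LKO HCC of mouse 5283, 3731 or 3975 gave 1.32, 1.19 and 1.18 (adjusted p = 0.0503, 0.0626 and 0.0644).

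The remaining ligands did not pass the thresholds. Hbegf, which encodes heparin-binding EGF, changed by 0.85 (SE 0.41, 95% interval -0.05 to 1.74, adjusted p = 0.13). Its levels were 0.25, -0.91, -0.51, 0.52 and 0.25 in p53f/f HCC against -0.47, 0.49, 1.5, 1.47 and 0.84 in p53LKO HCC. The lowest p53LKO HCC, that of mouse 3976, decided this call, since without it the change was 1.16 (adjusted p = 0.0309), and within the upper rows it was 1.35 (adjusted p = 0.0215). Tgfa changed by 0.47 (95% interval -0.09 to 1.02, adjusted p = 0.18), Btc, the ligand betacellulin, by 0.43 (-0.27 to 1.12, adjusted p = 0.32) and Areg by 0.29 (-0.62 to 1.21, adjusted p = 0.62). In p53f/f HCC, Btc read -1.53, -0.64, -0.94, -0.58 and -1.05 and Tgfa -1.97, -2.59, -3.15, -2.18 and -2.21, and both overlapped with the p53LKO HCC given further on. Areg spanned -4.43 to -2.55 in p53f/f HCC, where 3 of 5 arrays were above background, and -3.68 to -2.29 in p53LKO HCC, where 4 of 5 were.

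A fixed background correction (normexp, with an offset of 50), which compresses dim probes, left Egfr past the thresholds at -1.76 (adjusted p = 0.00101) and ended the calls of Egf (-0.63), Erbb3 (-0.51) and Ereg (0.13). Scaling to spike-in RNA, which moved the median of all genes by 0.74, left Egfr at -1.13 (adjusted p = 0.0239) and Ereg at 2.10, ended the calls of Egf (-0.82) and Erbb3 (-0.26), and put Btc (1.16), Hbegf (1.58) and Tgfa (1.20) past the thresholds as higher.

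The second comparison set ICC against HCC of the same genotype. Erbb2 rose 2.69-fold in ICC, the ligands Btc and Tgfa fell, and Areg, which passed the test as lower, was below background in all ICC, so that its fall was not measured. Egfr, which was lower in p53LKO than in p53f/f HCC, did not pass the test between the tumor types. Erbb4 and Egf were not tested because both were below background on these arrays. Of the 8 members tested, 1 was higher, against 12.3% of the 16140 genes tested, and 3 were lower, against 15.5% of them. These counts are a description, since Areg and Tgfa, which are 2 of the 3, met the filter on dim probes only through the HCC, where they read higher. Both calls stood without that filter. The median change of the tested members was -0.54, and that of all genes tested was -0.19. Both comparisons use the same p53LKO HCC arrays, so their changes are not independent of each other.

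Erbb2 levels in ICC were -1.31, -0.91, -0.32, -1.69 and -0.02, and each lay above each of the p53LKO HCC given above. The change was 1.43 (SE 0.34, 95% interval 0.68 to 2.17, adjusted p = 0.00652, exact permutation p = 0.00794). The margin was narrow at its edge, since the lowest ICC, that of mouse 3977, and the highest HCC, that of mouse 3731, both read -1.69. Within the lower rows, which held 2 HCC and 5 ICC, Erbb2 changed by 1.75 (adjusted p = 0.0326). Of these 2 HCC, that of mouse 5283 read -2.71 and was not above background, as the lowest level called on its array was -2.13. Within the second slide Erbb2 changed by 1.32 (adjusted p = 0.0482). The first slide held 1 ICC, and there the change was 1.29 (adjusted p = 0.226).

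Egfr changed by 0.26 between the tumor types (95% interval -0.24 to 0.75, adjusted p = 0.37) on the representing probe and by 0.28 and 0.27 on the others. Within the lower rows the change was -0.013 (adjusted p = 0.98). Erbb3 levels in ICC were -4.04, -5.03, -3.76, -3.64 and -4.0, all of them below background, and its change of -0.49 (95% interval -1.16 to 0.19) did not pass the test (adjusted p = 0.22). The order of group means was thus p53f/f HCC, ICC and p53LKO HCC for Egfr, where the last pair did not pass the test. For Erbb2 it was ICC, p53LKO HCC and p53f/f HCC, and again the last pair did not pass.

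Areg levels were -4.56, -5.0, -5.05, -4.81 and -4.94 in ICC and -2.29, -3.68, -3.19, -3.20 and -3.25 in p53LKO HCC. The ranges lay apart, and Areg was above background in 0 of 5 ICC and in 4 of 5 HCC. Its change was -1.75 (SE 0.24, adjusted p = 0.000361). All ICC arrays lay in lower rows, where the lowest level called above background was on average above the mean Areg level of the HCC, so that no fold can be given as a bound and the readings do not measure a fall. Of the 2 HCC in the lower rows, that of mouse 5283 was below background as well. Between the 2 HCC and the 5 ICC of the lower rows the change was -1.89 (adjusted p = 0.0137), and within the second slide it was -1.73 (adjusted p = 0.000974). On the first slide it was -1.58 (adjusted p = 0.26).

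Btc, which was above background on all 15 arrays, had levels of -0.68, 0.49, -1.33, -0.63 and -0.46 in p53LKO HCC and -1.86, -2.50, -2.75, -2.47 and -1.57 in ICC. Each ICC lay below each HCC. Btc fell by 1.71 (SE 0.34, 95% interval -2.45 to -0.97, adjusted p = 0.00252), or 3.27-fold. Its change was -2.14 within the lower rows (adjusted p = 0.0151), -1.51 within the second slide (adjusted p = 0.0155) and -1.77 within the first (adjusted p = 0.19).

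Tgfa, the ligand transforming growth factor alpha, had levels of -1.76, -1.48, -2.16, -2.33 and -2.03 in p53LKO HCC and -3.22, -3.63, -3.09, -3.56 and -3.18 in ICC. The HCC were all above background and the ICC all below it, with no overlap. The change was -1.38 (SE 0.20, adjusted p = 0.000465), and the fall was at least 1.70-fold when counted against the background of the ICC arrays. Within the lower rows it was -1.72 (adjusted p = 0.00553), within the second slide -1.19 (adjusted p = 0.00702) and within the first -1.60 (adjusted p = 0.152).

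Ereg changed by 0.39 (95% interval -0.46 to 1.24, adjusted p = 0.43). Its ICC levels were -2.96, -3.14, -1.65, -2.41 and -2.72, with 2 of 5 above background. Hbegf changed by -0.59 (95% interval -1.39 to 0.22, adjusted p = 0.21), with ICC levels of -0.32, 0.12, 0.34, 0.01 and 0.74 inside the range of the HCC. Its direction turned within the lower rows, to 0.17 (adjusted p = 0.763), while within the second slide it was -0.97 (adjusted p = 0.0291).

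Normexp correction ended all 4 of these calls, with Erbb2 at 0.93 (adjusted p = 0.00438), Btc at -0.97 (adjusted p = 0.00988), Tgfa at -0.49 (adjusted p = 0.017) and Areg at -0.37 (adjusted p = 0.0914). Markers of several cell types differed between the tumor types, with 5 of 8 hepatocyte markers lower, 4 of 7 bile duct markers higher and 6 of 8 fibroblast markers higher in ICC. Of 8 lymphocyte markers 3 were higher and 1 lower, of 8 endothelial markers 1 was higher, and 2 of 7 neutrophil and 2 of 5 pancreatic acinar markers were lower. Of all genes tested, 12.3% were higher and 15.5% lower. The mean level of the bile duct list was -1.83 to -0.43 in p53LKO HCC and 1.25 to 1.59 in ICC, that of the fibroblast list 1.48 to 3.50 and 3.67 to 4.57, and the part of these lists in the changes of Erbb2, Areg, Btc and Tgfa was not tested.

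**Figure D3:**
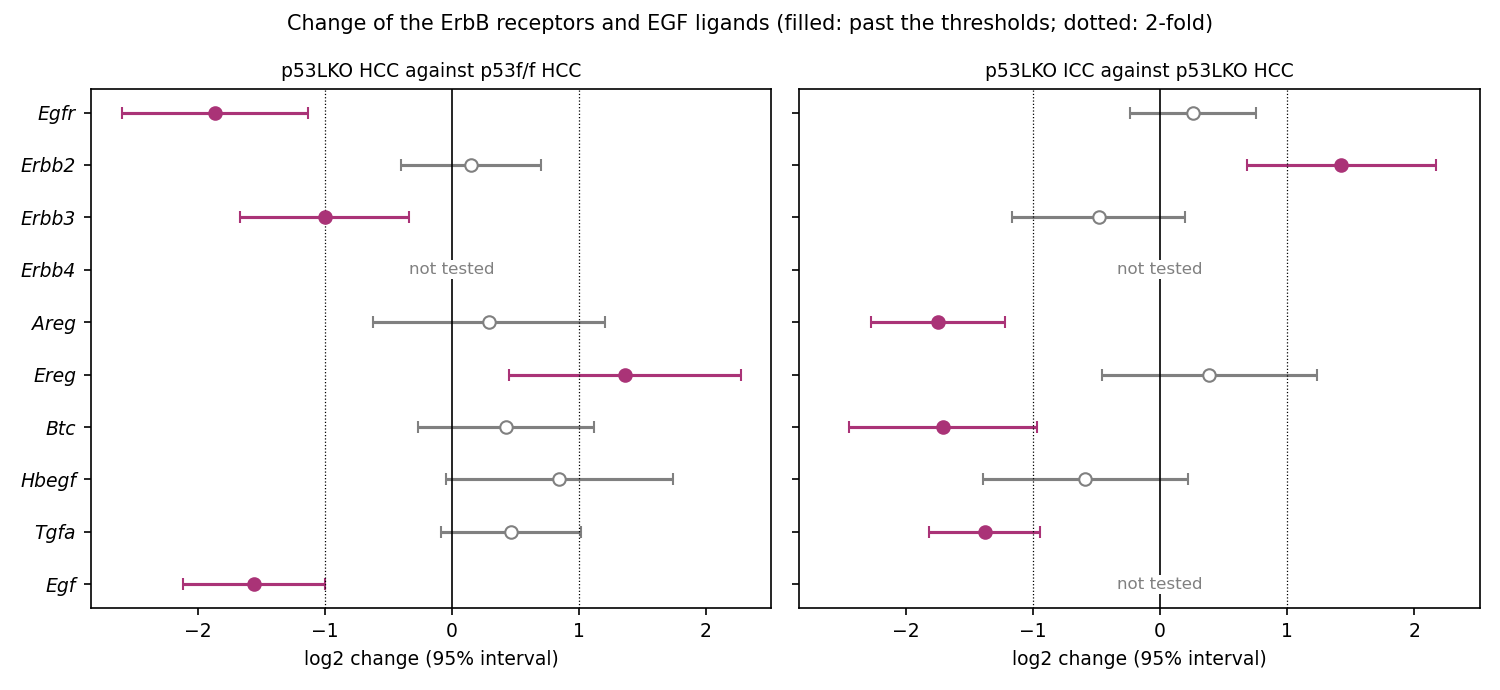
Change of each member in both comparisons, as log2 with its 95% interval from limma. Filled points passed an adjusted p of 0.05 and a fold change over 2, dotted lines mark 2-fold, and 1 member in the left panel and 2 in the right were not tested. Egfr, Erbb3 and Egf lie to the left and Ereg to the right in the first comparison, and Areg, Btc and Tgfa lie to the left and Erbb2 to the right in the second.

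Ereg, Areg and Btc are neighbours on chromosome 5, together with Epgn, the ligand epigen, which is not a member. Their probes span 323 kb (mm9), from Epgn at chr5:91464119-91464178 over Ereg at 58.4 kb and Areg at 106 kb to Btc. In p53LKO HCC against p53f/f HCC, Epgn fell by 2.11 (SE 0.19, adjusted p = 8.4e-05), or by 0.89 and under 2-fold with normexp, while Ereg passed as higher and Areg (0.29) and Btc (0.43) did not pass. In ICC against p53LKO HCC, Btc fell and Areg was below background, while Ereg (0.39, adjusted p = 0.43) and Epgn (1.25, adjusted p = 0.078) did not pass.

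Of the 5 other ligands of the family, 4 were tested and Nrg3 was below background. The neuregulins bind Erbb4, and only some of them also bind Erbb3. In p53LKO HCC against p53f/f HCC, Nrg1 (0.91, adjusted p = 0.12), Nrg2 (1.16, adjusted p = 0.23) and Nrg4 (1.11, adjusted p = 0.057) did not pass. In ICC against p53LKO HCC, Nrg4 fell from 1.40 ± 0.80 to -1.26 ± 0.72 (SD, n = 5 each), a change of -2.66 (SE 0.43, adjusted p = 0.000857). One of its other probes changed likewise by -2.11 (adjusted p = 0.00985), and one did not (0.74, adjusted p = 0.37). Nrg1 fell by 1.38 (SE 0.35, adjusted p = 0.00938), which missed the threshold with the slide row as a block (-1.37, adjusted p = 0.0627).

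Of 8 genes of sheddases and their partners, all tested, none passed both thresholds in p53LKO HCC, where 5.41% of all genes tested were higher and 8.96% lower. Adam17, the main sheddase of Areg and Tgfa, changed by 0.00098 there and by 0.30 (adjusted p = 0.28) in ICC. In ICC only Timp3, an inhibitor of metalloproteases, passed, and it rose by 1.79 (SE 0.39, adjusted p = 0.00441), while 12.3% of all genes tested were higher.

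Among 27 tested adaptors and effectors downstream of the receptors, 0 passed both thresholds in p53LKO HCC, where 5.41% of all genes tested were higher and 8.96% lower. Ptpn11, a phosphatase that aids the Ras cascade, passed in p but stayed under 2-fold (0.76, adjusted p = 0.0053). In ICC, 3 were higher and 2 lower, against 12.3% and 15.5% of all genes. Among them, Braf (1.24, adjusted p = 0.0039) and Pik3r1 (1.20, adjusted p = 0.0037), a regulatory subunit of PI3 kinase, rose. Sos1, which loads Ras with GTP, changed by -1.51 (adjusted p = 0.00733) in ICC, where it was below background on all arrays, and missed the threshold with the mouse as a block (-1.29, adjusted p = 0.0909) and within the lower rows (-1.27, adjusted p = 0.111), and normexp correction left -0.012. As for Areg, the background of the ICC arrays lay on average above its mean HCC level, so that no fall was measured. Sos1 and Gab1 met the filter on dim probes only through the HCC. Gab1, an adaptor, fell below background (-1.0, adjusted p = 0.02), by at least 1.20-fold.

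Of 12 genes listed as inhibitors of the receptors, 2 fell in p53LKO HCC, against 8.96% of all genes tested. Lrig3, a membrane protein of the Lrig family, fell from 1.35 ± 0.34 to -1.5 ± 1.02 (SD, n = 5 each), a change of -2.85 (SE 0.43, adjusted p = 0.000681). Whether Lrig3 restrains the receptors in these tumors was not tested. Errfi1, which binds and blocks the kinase of Egfr, fell from 6.94 ± 0.36 to 5.76 ± 0.50, a change of -1.18 (SE 0.27, adjusted p = 0.00668), and was lower again in ICC (-1.05, adjusted p = 0.038). Its fall between the HCC missed the thresholds with spike-in scaling (-0.45, adjusted p = 0.27), within the first slide (-0.76, adjusted p = 0.25) and with the Mann-Whitney test (adjusted p = 0.0542). In ICC, Socs5, which targets Egfr for degradation, rose by 1.54 (SE 0.20, adjusted p = 0.000303). Lrig3 rose by 1.26 (adjusted p = 0.0477), a call that 20 of 30 alternatives ended, among them the mouse as a fixed block (1.17, adjusted p = 0.21) and the lower rows alone (0.88, adjusted p = 0.323). Leaving out any 1 of 8 of the 10 tumors also ended it, at 0.97 to 1.35, and it stood without the HCC of mouse 5283 and without the ICC of mouse 5283.

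Of 17 transcripts known to follow ERK activity, 4 rose and 2 fell in p53LKO HCC, against 5.41% and 8.96% of all genes tested. Ier3 rose by 2.46 (SE 0.35, adjusted p = 0.000524), Dusp4, a phosphatase of ERK, by 1.28 (adjusted p = 0.0062), Myc by 1.26 (adjusted p = 0.0146) and Ccnd1, which encodes cyclin D1, by 1.23 (adjusted p = 0.00889). Within the first slide the calls of Myc (adjusted p = 0.228) and Ccnd1 (adjusted p = 0.163) were lost. The Mann-Whitney test ended those of Myc (adjusted p = 0.0874) and Dusp4 (adjusted p = 0.0542), and Ccnd1 was under 2-fold with quantile normalization (0.96) and with scaling to the 75th percentile of probes above background on all arrays (0.98). Spry2, an inhibitor of the cascade, fell by 1.96 (SE 0.27, adjusted p = 0.000451), or by 0.64 and under 2-fold with normexp. It was below background in 3 of 5 p53LKO HCC and met the filter on dim probes only through the p53f/f HCC, and its call stood without that filter. Phlda1 fell by 1.01 (adjusted p = 0.048). Others were close to 0, such as Egr1 (0.0070) and Dusp6 (-0.20, adjusted p = 0.47). The list thus moved in both directions, with a median change of 0.11. Of the 8 pathway genes with the widest changes between the HCC, from Lrig3 to Errfi1, none passed within the second slide, which held 1 p53f/f HCC, and all kept their sign there. In ICC, 1 of 16 rose and 1 fell, against 12.3% and 15.5% of all genes. Etv4, a transcription factor, rose by 2.33 (SE 0.24, adjusted p = 7.5e-05), with its other probe at 3.07, and Spry4 fell by 1.20 (adjusted p = 0.003).

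**Figure D4:**
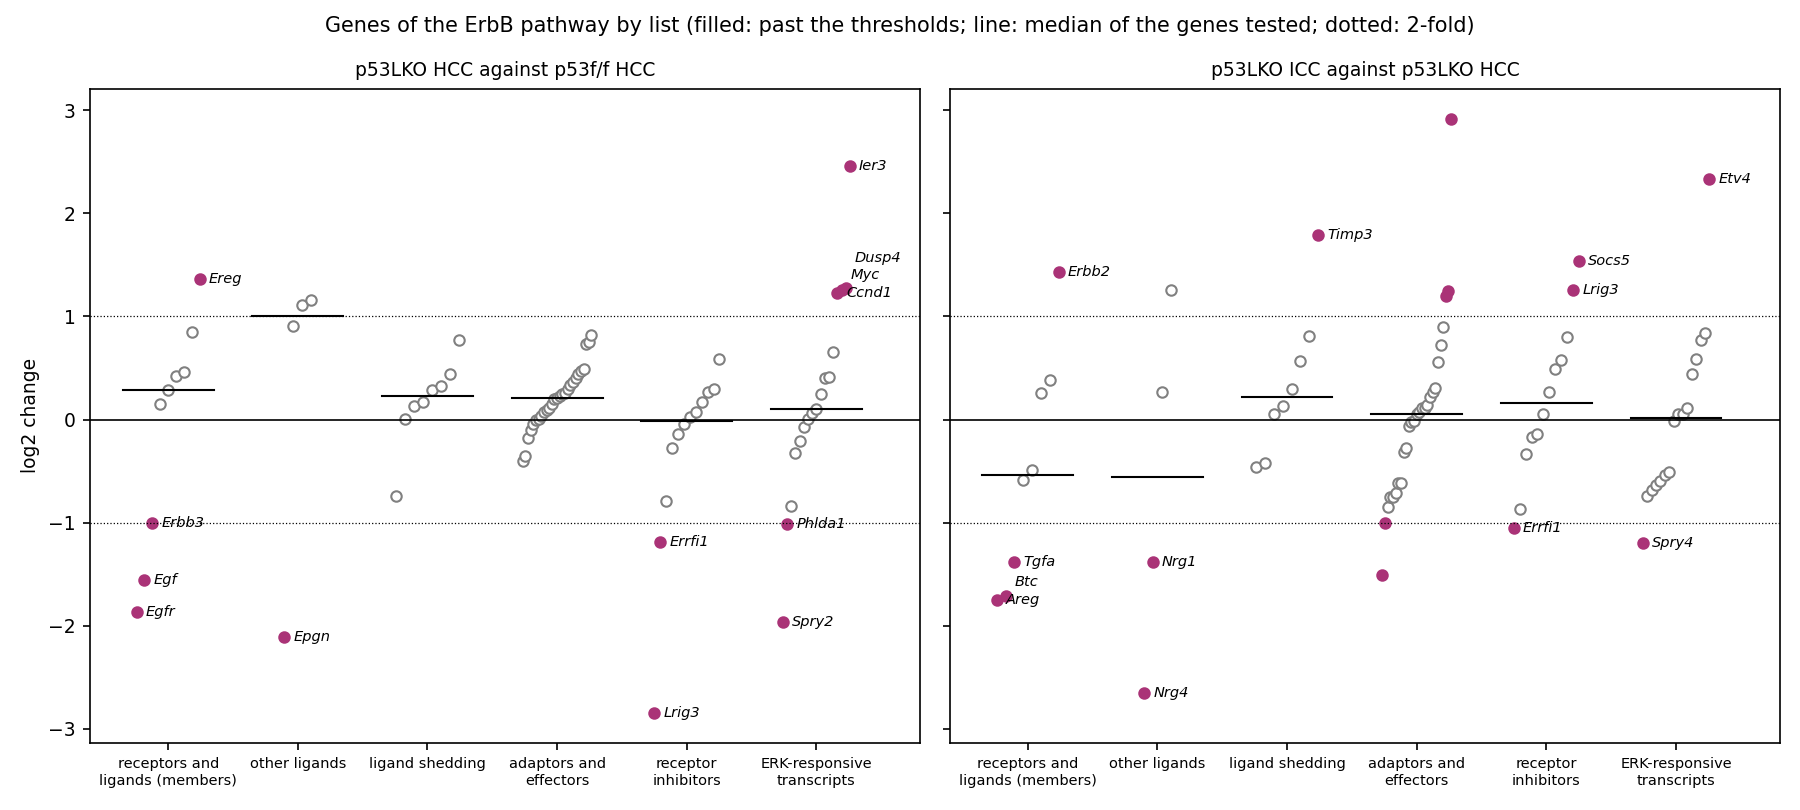
Change of each tested gene of the ErbB pathway in both comparisons, as log2, by list. Filled points passed an adjusted p of 0.05 and a fold change over 2 and are named in every list but that of adaptors and effectors, horizontal lines are the median of the tested genes of a list, and dotted lines mark 2-fold. Among adaptors and effectors no gene is filled on the left and 5 are on the right, and Lrig3 and Errfi1 of the inhibitor list lie below 0 on the left.

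Over all 15 arrays, the genes whose level followed that of a member most closely were sought among 13141 genes above background on at least 12 arrays. For Egfr these were Xpo6 (Pearson r = 0.916), Zfp846 (r = 0.914) and Whamm (r = 0.913), each highest in p53f/f HCC. For Btc they were Tut1 (r = 0.908), Thtpa (r = 0.901) and Gss (r = 0.896), the last being glutathione synthetase. For Erbb2 they included Necap2 (r = 0.954) and Plcd1 (r = 0.952), each highest in ICC. The 15 points share their groups, slides and rows, so these values describe likeness and nothing more.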

How the data were processed

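Total RNA of 15 tumors was labelled with Cy3 and hybridised to Agilent SurePrint G3 mouse arrays, and the authors extracted the images with Feature Extraction 10.7.3.1. In the deposited scanner files, the processed signal of a spot is its background-subtracted intensity. The authors also deposited log2 values, which matched the processed signal scaled to the 75th percentile and centred on the median of each probe over the arrays of a comparison. Its column medians were -0.33 to 0.34, and HCC and ICC columns were centred on different arrays, so it served as an alternative for the HCC comparison only. The methods name GeneSpring, without the normalization used.

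Spots of one probe were averaged on the log2 scale, outlier spots aside unless none was left, and the 75th percentile of all non-control probes was subtracted on each array. The probe of highest mean level stood for its gene. Each comparison used its own 10 arrays in limma 3.58.1 (R 4.3.3). In simulated data, the fit called 77% of 200 probes given a log2 change of 2 between the HCC, and 70% in ICC. Changes of that size can thus be missed. Single members also had a 2-sided exact permutation test. Where no array of a group was above background, a fold is given only as a bound, taking on each dim array the higher of the probe's own level and the lowest level among probes well above background. Named are all members, up to 8 called pathway genes per comparison with the largest change, further genes of the lists chosen after their values were seen, and the 3 genes most like each of the 3 members with the widest range of group means among those above background on at least 12 arrays, and a few genes this rule names are not reported here. Members, lists and tests were chosen with earlier results of these data known. Promoters are from RefSeq, and probe positions are those of mm9. Figures were drawn with matplotlib 3.10.9 in Python 3.11.15.

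The arrays have no read depth. The number of arrays and the signal over background limit precision, with 37.0% to 70.1% of the probes of an array well above background. The labels do not say whether tumors of one mouse arose separately, so p-values measure the spread between these tumors. Of the p53LKO mice, 4 gave both tumor types, and deviations of their HCC and ICC from the group means correlated at -0.14 to 0.065, against -0.26 to 0.28 for other pairs. The pairing rests on the mouse numbers in the labels, and the mouse as a block is an alternative. Other alternatives were background correction, 4 scalings, 3 filters, the slide and its row as a block or alone, all 15 arrays in 1 model, other thresholds, the Mann-Whitney test, the methods' t-test, and leaving out each tumor.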

Additional observations from a re-analysis of the deposited data

Results flagged for a closer look

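Levels of the 10 members and of the pathway genes named per comparison were searched for a tumor that stood apart from the other 4 of its group, by the gap to its nearest neighbour over the range of the group (limit 0.71). Among 75 sets of 5 tumors, 3 were found, and chance alone sets about 1 in 20 apart. Erbb3 in the ICC of mouse 3733 read -5.03, against -4.04 to -3.64 in the other ICC, with all 5 below background. Egf in the ICC of mouse 3731 read -4.35, against -5.01 to -4.86, again with all 5 below background, and it was the only ICC array of the first slide. Lrig3 in the ICC of mouse 5283 read -1.31, against -0.10 to 0.12 in the other ICC, and was above background in all 5.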

How the results depend on the processing

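In p53LKO HCC against p53f/f HCC, 7063 probes passed the thresholds, of which 1310 were higher and 5753 lower. The count was 2889 with normexp correction (934 higher), 12122 with spike-in scaling (9821 higher and 2301 lower), 1850 for probes above background on every array (1005 higher), 3480 and 509 within the first and second slide, and 11839 with any fold change. Quantile normalization gave 1545 higher and 3707 lower, and scaling to the probes above background on all 15 arrays gave 630 and 7928 by their 75th percentile and 771 and 7311 by their median. In ICC against p53LKO HCC, 8616 probes passed, 4221 of them higher, against 5613 with normexp, 4334 for probes above background on every array, 1173 within the first slide and 14765 with any fold change. The last 2 scalings gave 6239 higher and 2251 lower, and 5133 and 3014. Leaving out 1 tumor gave 6062 to 7773 probes in the first comparison and 7425 to 9409 in the second.

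These scalings moved the median of all genes by -0.25 and -0.19 in the first comparison and by 0.37 and 0.21 in the second, and spike-in scaling by 0.74 and 0.013. The count of 4 members past the thresholds in the HCC comparison became 1 with normexp, 1 for probes above background on every array, 0 within the first slide and 1 within the second. It was 2 without a filter on dim probes, with the filter on all arrays of 1 group, with the methods' t-test, with the Mann-Whitney test and at an adjusted p of 0.01, and 2 to 5 with 1 tumor left out. Egfr was past the thresholds in 30 of 31 alternatives. In ICC the count of 4 became 0 with normexp, 1 for probes above background on every array and 0 within the first slide, and stayed at 4 whichever tumor was left out.

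Directions turned for 4 changes that had not passed. For Erbb2 between the HCC these were -0.041 (normexp), -0.095 and -0.034 (scaling to the 75th percentile or median of probes above background), -0.038 (slide as a block) and -0.098 (first slide). Areg between the HCC gave -0.031 with normexp and -0.62 within the second slide. In ICC, Egfr gave -0.013 and Hbegf 0.17, both with the row as a block and within the lower rows. With the mouse as a fixed replicate block 7245 probes and 4 members passed in ICC, and as a random replicate block 8660 probes and 4 members. Among the members and the 8 pathway genes with the widest changes, the fixed block ended the calls of Sos1 and Lrig3 and changed no other. The fixed block was fitted to all tested probes, but its values for the other genes named in ICC are not reported here. The cause of these shifts was not tested. Probes close to the background of the lower rows, such as those of Areg, Ereg, Egf, Erbb3 and, in HCC, Erbb2, limit what can be read from these arrays.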

Other observations

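The genes that lie within 100 kb of the Erbb2 probe on chromosome 11 (mm9) were read in ICC against p53LKO HCC, a choice made after the rise of Erbb2 had been seen. Of 9 such genes, 8 were tested, 0 rose and 2 fell, against 12.3% and 15.5% of all genes tested. Grb7, an adaptor that is often gained together with ERBB2 in human cancers, lies 18.5 kb downstream and changed by -0.31 (adjusted p = 0.243). Copy number was not measured, and the cause of the Erbb2 rise was not tested. Mien1, at 1.19 kb, changed by -0.24 (adjusted p = 0.32), Stard3 by -0.0062 (adjusted p = 0.981) and Pgap3 by 0.37 (adjusted p = 0.15). Pnmt, the enzyme that makes adrenaline, fell by 1.51 (adjusted p = 0.000862), and Ikzf3, a transcription factor of lymphocytes, fell by 1.39 (adjusted p = 0.000137). Beside Egfr, 2 of 3 genes within 100 kb were tested between the HCC, and neither Eldr (-0.64, adjusted p = 0.0665) nor Plek (0.49, adjusted p = 0.276) passed.

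Some markers of other cells passed between the HCC as well, where 5.41% of all genes tested were higher and 8.96% lower. Of 7 neutrophil markers, S100a8 (1.84, adjusted p = 0.023), S100a9 (2.10, adjusted p = 0.008) and Retnlg (2.22, adjusted p = 0.029) rose in p53LKO HCC, and the mean level of the list was -1.40 to -0.23 in p53f/f HCC and -0.25 to 1.51 in p53LKO HCC. Of 8 endothelial markers, Stab2 (-1.17, adjusted p = 0.027) and Tek (-1.06, adjusted p = 0.0087) fell, and of 8 fibroblast markers Lum rose (1.69, adjusted p = 0.033). None of 6 macrophage, 8 lymphocyte or 5 bile duct markers tested passed in that comparison, and 1 of 7 pancreatic acinar markers was lower.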
